A study of Homo sapiens with 6 samples.

Results

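The genes described here are the long intergenic noncoding RNA (lincRNA) genes that were detectably expressed in A375, an established line of human melanoma cells. They were taken as the genes with the biotype lincRNA and at least 1 FPKM in at least 3 of 6 libraries, leaving out NEAT1, MALAT1, GAS5, DANCR and the genes whose names start with SNHG. FPKM is reads scaled by gene length and by the size of the library. This gave 306 of 58735 genes in the table, out of 7629 with that biotype, and 8 more lincRNA genes past the threshold were left out by name. Poly-A enriched RNA was sequenced from cells treated with PAL, a Ringer's lactate solution activated by low-temperature plasma (3 libraries), and from untreated control cells (3 libraries). The sources used here give neither the dose and exposure time nor whether libraries came from separate cultures. The p-values then weigh a difference between the groups only against the spread among these libraries, which may be technical.

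A lincRNA is transcribed and often spliced like a messenger RNA but encodes no known protein, and its gene is annotated as lying between protein-coding genes, although some overlap one. Many lincRNAs stay near their site of transcription and are removed by the nuclear exosome, while a few reach the cytoplasm and bind proteins there, as NORAD binds the Pumilio repressors. Others serve as hosts from which a microRNA is cut, as MIR22HG does for miR-22.

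The genes were selected on their measured level: the rule used the FPKM of all 6 libraries but not the difference between PAL and control. In all 6 libraries, 191 genes reached 1 FPKM. A further 7 reached it in the 3 PAL libraries and in 0 control libraries, and 6 in the 3 control libraries and in 0 PAL libraries, so these 13 had to differ. The other 102 reached it in 3 to 5 libraries with at least 1 from each group. The genes just inside the threshold were AP001527.2, LINC01852 and AC015813.4, whose value in the library ranked 3 was 1.001, 1.002 and 1.004 FPKM. Those just outside were AC055713.1, AC121342.1 and AC100847.1, at 0.985, 0.988 and 0.996 FPKM.

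The sequences shown first are those that identify the genes discussed most. NORAD and HCG11 both rose and are alike in sequence. Their longest transcripts aligned over 99.98% of NORAD and 94.4% of HCG11 with 90.0% identity over the aligned columns. Both carry the Pumilio element, searched as TGTANATA on the transcript's strand, and in a stretch of 60 bases where each holds 2 of them, the 3 differing bases are in capitals. The stretch covers bases 1442 to 1501 of NORAD and 1435 to 1494 of HCG11.
NORAD: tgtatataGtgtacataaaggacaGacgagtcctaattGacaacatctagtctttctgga
HCG11: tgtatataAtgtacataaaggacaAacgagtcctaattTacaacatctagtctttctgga

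The microRNAs that lie within MIR22HG and MIR222HG come from RefSeq (GRCh38.p14), with the seed (bases 2 to 8), which pairs with targets, in capitals. MiR-221-3p and miR-222-3p share one seed, and miR-22-3p has another. They are shown because MIR22HG fell while MIR222HG did not pass the test. The table holds reads on the host genes, and mature microRNAs are not retained by poly-A enrichment, so the values below are those of the hosts.
miR-22-3p: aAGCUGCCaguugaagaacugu
miR-221-3p: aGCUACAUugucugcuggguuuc
miR-222-3p: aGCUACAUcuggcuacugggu

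AC207130.1 and AL355432.1 were nearly lost in PAL and AP005233.2 had the largest rise. Few sources describe these genes, so the junction between their first and second exon is given, 40 bases on each side, with the second exon in capitals. Exon 1 of AC207130.1 ends at position 49374463 of chromosome 22 (hg38, plus strand) and exon 2 starts at 49376320. For AL355432.1 the positions are 27103076 and 27104612 on chromosome 9, and for AP005233.2 they are 69371547 and 69372226 on chromosome 11, both on the plus strand.
AC207130.1: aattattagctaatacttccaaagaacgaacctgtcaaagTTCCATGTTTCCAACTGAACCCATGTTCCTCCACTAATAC
AL355432.1: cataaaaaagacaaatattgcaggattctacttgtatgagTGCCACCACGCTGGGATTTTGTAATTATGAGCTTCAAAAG
AP005233.2: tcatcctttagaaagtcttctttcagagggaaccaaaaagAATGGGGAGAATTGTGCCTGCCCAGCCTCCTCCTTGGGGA

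Reads assigned to genes ranged from 15064971 to 17711389 per library. Of 12 melanoma markers, 7 had a mean of at least 1 FPKM, with SOX10 at 88.1 in control and 108 in PAL, while the pigment genes TYR, MLANA, DCT, TYRP1 and PMEL were at or near 0. Summed markers of immune cells and endothelium stayed below 0.3 FPKM in every library. Of 4 keratinocyte and 4 fibroblast markers, KRT10, KRT14 and LUM had a mean of at least 1 FPKM, and no list separated the groups except the melanoma list, with sums of 892 to 915 in control and 938 to 944 in PAL. The control libraries, not the PAL libraries, had high heat shock transcripts: HSPA6, which encodes an inducible heat shock protein, had a mean of 1882 ± 171 FPKM in the control libraries and of 40.4 ± 28.6 in the PAL libraries (SD, n = 3). A difference between PAL and control below therefore compares PAL-treated cells with control cells in that state, and the part of that state in it was not tested. The group labels are used as given. Whether they are right was not tested, and exchanged labels would turn every direction below.

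LincRNA genes were low. Their median level was 1.81 FPKM, and a gene had a median of 242 reads over all 6 libraries, from 16 to 34852. In such bulk samples, fewer cells that express a gene and less of its RNA per cell cannot be told apart. Together the lincRNA genes took 0.204%, 0.205% and 0.198% of assigned reads in the control libraries and 0.235%, 0.231% and 0.229% in the PAL libraries. Every PAL library was above every control library, with means of 0.202% ± 0.00402 and 0.232% ± 0.00286 (SD, n = 3). On the FPKM scale, whose library sizes are larger in PAL relative to the read total, the gap was smaller, 1022 ± 11.4 against 1074 ± 14.4 summed FPKM.

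Rises outnumbered falls among lincRNA genes. In limma, fitted over all 12258 tested genes adjusted by Benjamini-Hochberg and called under 0.05, 41 of 306 were higher in PAL (13.4%, against 11.4% of all tested genes) and 21 were lower (6.86%, against 14.5%). Calls in either direction covered 20.3% of lincRNA genes, 25.9% of all tested genes, 27.7% of protein-coding genes and 14.6% of antisense genes, of which 2.02% were lower. The calls include 6 rises and 6 falls of the genes that had to differ. A tested gene of any kind had a median of 3025 reads, and the share of lincRNA genes called was 14.3% under 50 reads and 30.8% at 1000 reads and over. The groups did not overlap for 31.4% of lincRNA genes and 44.9% of all tested genes, that is for 67 lincRNA genes that were higher (21.9%, against 21.4% of all) and 29 that were lower (9.48%, against 23.6%). The median log2 change, PAL minus control on the log2(FPKM + 1) scale, was 0.08 for lincRNA genes and 0.004 for all tested genes.

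Which lincRNA genes were counted and how libraries were scaled both moved the split. Among the 191 genes at 1 FPKM or more in every library, 28 were higher and 12 lower. Of the 212 that share no exonic base with another gene, 27 were higher and 17 lower. Rises made up 66.1% of lincRNA calls and 44.0% of all calls with the values as deposited, but 73.6% and 69.7% as TPM, and 75.3% and 73.3% when libraries were scaled by plain read totals. The lincRNA rises dropped to 27 without PAL replicate 1 and also to 27 without PAL replicate 2. They dropped to 20, and the falls to 12, when every gene above 0 in any library entered the fit.

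**Figure D1:**
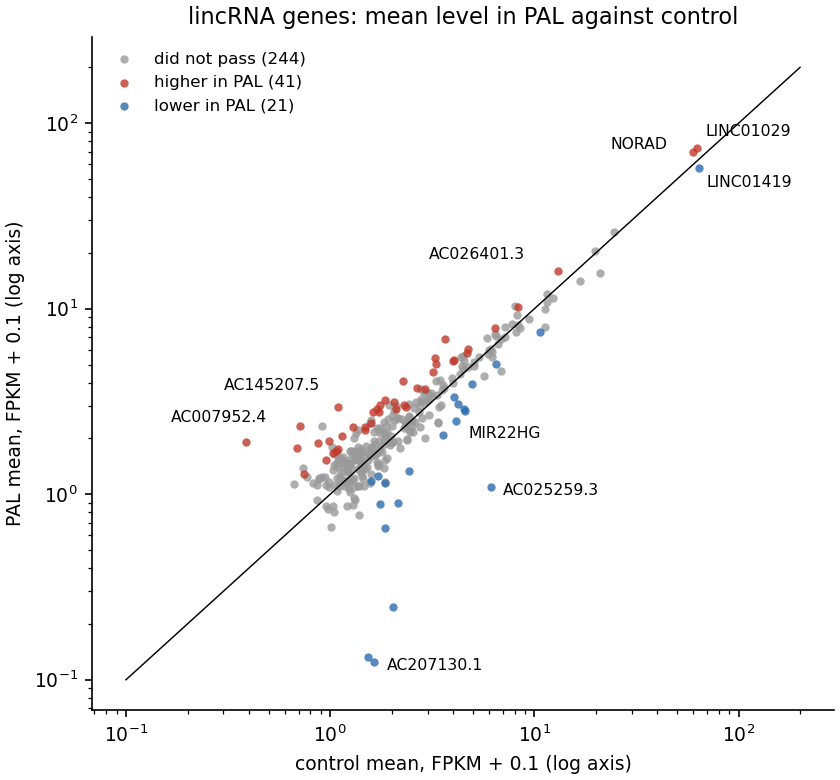
Mean FPKM of each of the 306 lincRNA genes in PAL (vertical axis) against control (horizontal axis), both log axes with 0.1 added, over 3 libraries each, with the line of equal values. Most points lie near the line, 41 red points are higher and 21 blue points lower in PAL, and AC207130.1 lies close to the bottom, at a PAL mean of 0.0248 FPKM.

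Most changes were small. Of the calls, 16 rises and 12 falls reached 0.5 on the log2 scale, and 2 rises and 4 falls reached 1. The scale understates the change of low genes, which most lincRNA genes are.

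The largest fall was that of AC025259.3 (chr12:52058459-52059503, minus strand), whose current symbol is NR4A1AS. It lies across NR4A1, an immediate early gene that encodes a nuclear receptor, on the opposite strand. Its 3 control libraries had 4.63, 5.90 and 7.48 FPKM and its PAL libraries 1.01, 0.851 and 1.13. Every PAL value was under every control value, and the fall was 1.79 ± 0.14 (SE), with an adjusted p of 3.24e-04 in limma. NR4A1 went from 44.0 ± 8.22 to 6.55 ± 0.828 FPKM. Of the exonic bases of AC025259.3, 82.4% lie under NR4A1 exons. The sources used here do not say whether the counting used strand, so reads of AC025259.3 and NR4A1 cannot be told apart.

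AC207130.1 (chr22:49372924-49377119), a gene of 2 exons far from any protein-coding gene, was almost absent in PAL. The control libraries had 1.57, 1.38 and 1.68 FPKM, and the PAL libraries 0.00, 0.0512 and 0.0232. That is 167 reads in the control libraries and 3 in the PAL libraries, a ratio of 64.6 after scaling. It reached 1 FPKM through the control libraries alone and so had to differ, as did AL355432.1, AC108134.2, AL365434.2 and MGC12916 below. Their differences are given as descriptions, with no test, and that of AC207130.1 was -1.31 on the log2 scale. BRD1, the nearest protein-coding gene, lies 396164 bases away and had a change of -0.01. AL355432.1 (chr9:27102630-27104728), upstream of the endothelial receptor gene TEK, showed the same shape at lower depth. It had 1.12, 2.03 and 1.14 FPKM in control and 0.0964, 0.00 and 0.00 in PAL, which is 37 reads against 1 and a ratio of 42.9. TEK itself was below the filter.

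AC108134.2 (chr16:3156736-3157483) had uneven values, 3.29, 1.35 and 1.12 FPKM in control and 0.145, 0.0801 and 0.218 in PAL. Control replicate 1 stood far above the other control libraries. MGC12916 (chr17:14303854-14305505), inside the heparan sulfate enzyme gene HS3ST3B1, went from 1.64, 1.96 and 2.54 to 0.823, 0.943 and 0.624 FPKM. The difference was -0.76 on the log2 scale.

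MIR22HG (chr17:1711493-1717174, minus strand), the host of miR-22, had 3.83, 3.80 and 4.45 FPKM in control and 2.86, 2.09 and 2.20 in PAL. The groups did not overlap, and the fall was 0.58 ± 0.10, adjusted p 0.0074 in limma. WDR81, which overlaps it on the opposite strand, rose by 0.33. MiR-22-3p lies in an exon of MIR22HG, at chr17:1713914-1713935. Without both libraries numbered 3 the MIR22HG adjusted p was 0.0521.

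The other 4 of the 10 largest falls had changes between -0.84 and -0.56. AL365434.2 rested on 26 reads, with 2.16, 1.44 and 1.66 FPKM in control and 0.929, 0.512 and 0.232 in PAL. AP003900.1 lost its call in 7 alternatives, among them those without PAL replicate 1, PAL replicate 3, control replicate 1 or control replicate 3, with an adjusted p of up to 0.105. AC008736.1, which starts 211 bases from NUDT19 on the opposite strand, lost its call with voom on the recovered reads and when every gene above 0 entered the fit, with an adjusted p of up to 0.0571. AC114912.1, a gene of 5 exons with ADGRA3 as the nearest protein-coding gene, had 3.12, 3.83 and 3.43 FPKM in control and 1.99, 2.19 and 1.79 in PAL, and kept its call in every alternative it entered.

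**Figure D2:**
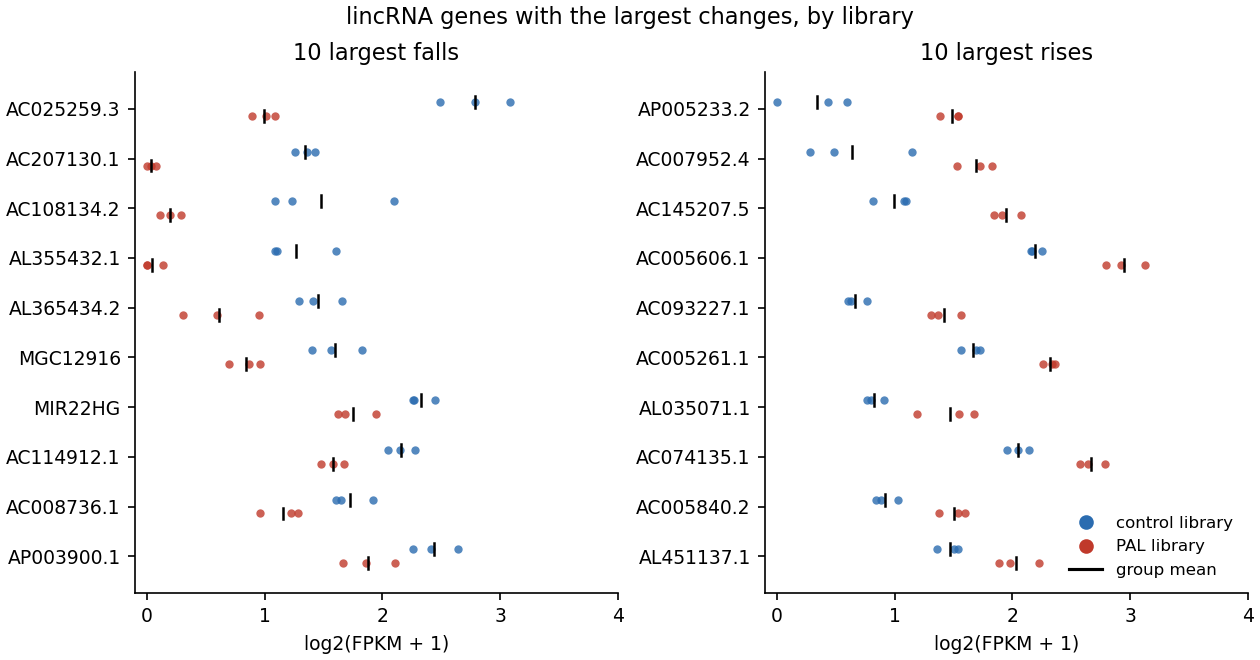
Values of log2(FPKM + 1) in each control library (blue) and PAL library (red) for the 10 lincRNA genes with the largest falls and the 10 with the largest rises among those that passed and did not overlap, with group means as black bars. AC207130.1 and AL355432.1 lie near 0 in the PAL libraries, and AP005233.2 near 0 to 0.6 in the control libraries.

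AP005233.2 (chr11:69371463-69372512) had the largest rise. It lies 3737 bases downstream of MYEOV, a gene often amplified in tumours. It had 0.510, 0.00 and 0.347 FPKM in control and 1.90, 1.61 and 1.90 in PAL, on 5 and 36 reads, a ratio of 6.21. This gene reached 1 FPKM through the PAL libraries alone and so had to differ, and its difference is given as a description. AP000439.3, which also has MYEOV as the nearest protein-coding gene at 57964 bases, rose by 0.38, and MYEOV by 0.26.

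AC145207.5 (chr17:81878425-81881106, minus strand, 1 exon) rested on more reads, 531. It lies 6738 bases downstream of ALYREF, an mRNA export factor, on the same strand. Its values were 0.754, 1.11 and 1.13 FPKM in control and 2.76, 3.22 and 2.59 in PAL. All PAL libraries were above all control libraries, and it rose by 0.95 ± 0.10 with an adjusted p of 0.00125 in limma, while ALYREF had a change of -0.01. Of its exonic bases, 29.2% lie under AC145207.6 on the opposite strand.

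AC005261.1 (chr19:57304305-57308562, 1 exon), 10736 bases downstream of the zinc finger gene ZNF460, had 1335 reads, the most among the 10 largest rises. It went from 1.96, 2.24 and 2.30 FPKM to 4.12, 3.80 and 4.04, with tight values in both groups. The rise was 0.66 ± 0.06, adjusted p 7.49e-04 in limma, and ZNF460 had a change of -0.17 that did not pass (adjusted p 0.294).

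AC005606.1 (chr16:1997654-1998374) rose from 3.76, 3.48 and 3.46 to 6.58, 7.73 and 5.92 FPKM, but all of its exonic bases (100%) lie under exons of ZNF598, a ubiquitin ligase of stalled ribosomes, on the opposite strand. ZNF598 had a change of 0.06. AC007952.4 (chr17:19112000-19112636) rose from 0.397, 0.212 and 1.22 to 1.88, 2.54 and 2.30 FPKM. It shares 34.2% of its exonic bases with the small nucleolar RNA gene SNORD3D, which has near-identical copies, so its reads are uncertain. Its call was lost without PAL replicate 2 and with every gene above 0 in the fit, with an adjusted p of up to 0.0574. The other 5 of the 10 largest rises, AC093227.1, AL035071.1, AC074135.1, AC005840.2 and AL451137.1, had changes of 0.57 to 0.75. AC093227.1 and AL035071.1 reached 1 FPKM through the PAL libraries alone and had to differ, so their changes are given as descriptions. Even so, AL035071.1 lost its call without PAL replicate 1 and with every gene above 0 in the fit. AL451137.1 lost its call with voom on the recovered reads (adjusted p 0.0693).

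Profiles over the 6 libraries most like those of the 3 largest falls and rises were found by Pearson's r of log2(FPKM + 1), as a description over 6 points that share the group difference. AC025259.3 was most like ERRFI1, MIA3 and ARID4A. For AC207130.1 the nearest were FAM83D, FKBP4 and FBXL14, and for AC108134.2 USP48, TUBB2B and USP3. AP005233.2 was nearest to CD59, GOSR2 and BACE1-AS, AC007952.4 to TUSC2, NCDN and TOMM40, and AC145207.5 to SNX27, HIST1H2BL and SLC39A13. Every r was above 0.99.

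A few lincRNA genes stood far above the rest. LINC01029, NORAD and LINC01419 had 56.2 to 75.6 FPKM in every library, and the next, AC134978.1, had a mean of 24.5 in control. LINC01029 (chr18:77971294-77993722) had 65.0, 63.3 and 59.5 FPKM in control and 75.6, 72.5 and 71.3 in PAL. The groups did not overlap, and it rose by 0.22 ± 0.04 (adjusted p 0.00868 in limma). AC134978.1, which lies within the span of LINC01029 on the same strand and shares no exonic base with it, had a change of 0.08 that did not pass, adjusted p 0.504. LINC01419 (chr8:83403758-83408900) had 63.8, 65.2 and 61.7 FPKM in control and 56.9, 57.9 and 56.2 in PAL, and fell by 0.15 (adjusted p 0.01005). That call was lost with TPM, quantile normalization and plain read totals, with an adjusted p of up to 0.108.

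NORAD (chr20:36045622-36050960, minus strand, 1 exon) held 34852 of the reads on lincRNA genes, the most of any. It had 61.3, 61.5 and 57.3 FPKM in control and 71.4, 69.4 and 69.9 in PAL. The lowest PAL value was above the highest control value, the rise was 0.22 ± 0.03, and the adjusted p was 0.00461 in limma, and between 3.95e-05 and 0.0223 in the alternatives. HCG11 (chr6:26521709-26527404, 1 exon), named after its values were seen, had 2.22, 2.42 and 2.13 FPKM in control and 2.96, 2.98 and 2.62 in PAL. It rose by 0.24 ± 0.07 with an adjusted p of 0.0358 in limma.

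The aligned sequences above bear on how the pair can be read. Of all 100-base windows of NORAD, 0.344% occur without a mismatch in HCG11, and of all 50-base windows 4.31%. The sources used here give neither the read length nor the treatment of reads that match both, so some reads of HCG11, whose level is far lower, may belong to NORAD. HCG11 holds 16 Pumilio elements and NORAD 15. Only these 2 of 306 lincRNA genes have at least 5, and 4 of 12253 tested genes with a transcript sequence have at least 10. One or more elements occur in 28 lincRNA genes (9.15%) and in 30.3% of tested genes, which have longer transcripts. This motif was chosen after the NORAD values were seen, and a match is a description of the letters.

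**Figure D3:**
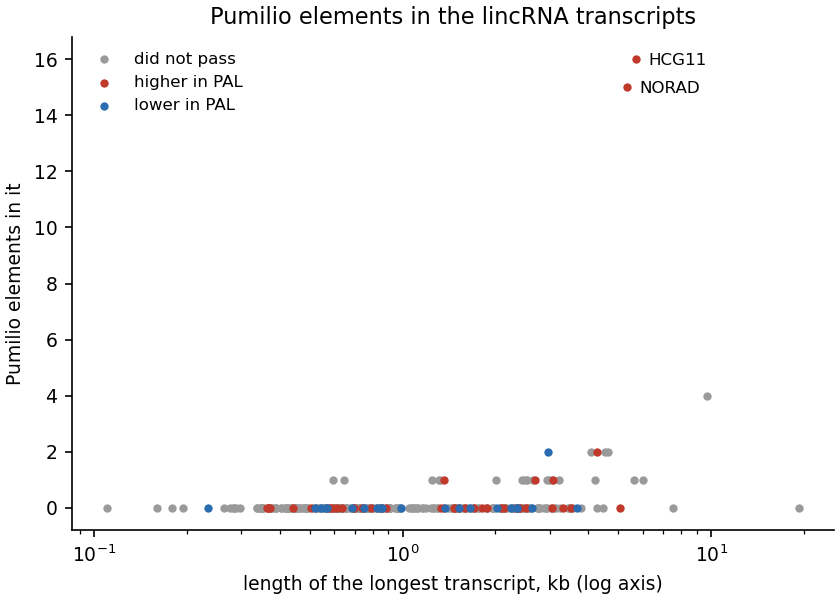
Number of TGTANATA matches in the longest transcript of each lincRNA gene against its length in kb (log axis), with genes higher in PAL in red and lower in blue. NORAD with 15 and HCG11 with 16 stand apart, and every other lincRNA gene has 4 or fewer.

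Among the other highly expressed lincRNA genes, AC026401.3 (chr16:15701237-15702118), inside the centrosome gene NDE1, went from 13.1, 12.3 and 13.2 to 16.5, 16.2 and 14.9 FPKM. The groups did not overlap and it rose by 0.28, adjusted p 0.00777 in limma, while NDE1 had a change of -0.03. LINC01293 and AL035446.1 had changes of 0.04 and -0.08 and did not pass. CU104787.1 had 21.1, 18.8 and 22.6 FPKM in control and 12.5, 16.4 and 17.7 in PAL, a change of -0.41 with an adjusted p of 0.0532 that missed the threshold although the groups did not overlap. BX119904.2 had a change of -0.22 and an adjusted p of 0.0664.

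Of the lincRNA genes listed for a described role, NORAD passed as higher and 3 passed as lower. The others on this list, all given in the next paragraph, did not pass. Among all tested genes 25.9% were called, and whether this short list differs from them was not tested. EPB41L4A-AS1 (chr5:112160526-112164276), a p53-regulated transcript, had 6.12, 6.38 and 6.70 FPKM in control and 5.28, 4.75 and 4.74 in PAL, a fall of 0.32 ± 0.06 with an adjusted p of 0.00738 in limma. No PAL library reached the lowest control library. Of its exonic bases, 49.6% lie under exons of EPB41L4A on the opposite strand, so part of its reads may come from there. MIR548XHG, a microRNA host, fell by 0.52, from 4.42 ± 0.504 to 2.78 ± 0.428 FPKM (adjusted p 0.0115). MIR22HG is described above. Without both libraries numbered 3, the adjusted p of EPB41L4A-AS1 was 0.0503.

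MIR222HG, the host of the tumour-associated miR-221 and miR-222, had 1.38, 1.65 and 1.88 FPKM in control and 1.76, 1.53 and 1.70 in PAL, with a change of 0.02 ± 0.09 and overlapping groups. PVT1, 53099 bases downstream of MYC, had 1.38 ± 0.102 and 1.46 ± 0.254 FPKM and a change of 0.04 ± 0.09, while MYC fell by 0.40. CRNDE had 2.41, 2.39 and 2.16 FPKM in control and 2.52, 2.57 and 2.41 in PAL. Its groups just failed to overlap, but its change of 0.08 ± 0.06 did not pass (adjusted p 0.37). CYTOR and MIR4435-2HG, near-identical copies on chromosome 2 that both hold miR-4435, had changes of -0.06 and 0.10, and the split of reads between them is uncertain. JPX and TP53TG1 had changes of 0.09 and 0.18 and did not pass.

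By name, 75 genes had LINC symbols, of which 8 rose and 7 fell. The test called 20% of these and 20.6% of those with clone names, against 25.9% of all tested genes. The 180 genes listed under clone names in the table had 28 rises and 9 falls, 4 microRNA hosts had 0 and 2, and 47 other names had 5 and 3. The calls counted by name include the 6 rises and 6 falls of genes that had to differ.

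Calls were also counted by exon number. Of 74 lincRNA genes with 1 exon, 17 rose and 4 fell (28.4% called), with a median log2 change of 0.17. The 86 with 2 exons had 12 rises and 6 falls (20.9%) and a median of 0.08. The 146 with 3 or more had 12 rises and 11 falls (15.8%) and a median of 0.04. Among all tested genes 25.9% were called, 11.4% higher and 14.5% lower. The lincRNA calls include the 6 rises and 6 falls of genes that had to differ. The difference between the exon classes was not tested. Antisense genes had more rises than falls at every exon number, 14 and 2 with 1 exon, 43 and 7 with 2 and 30 and 5 with 3 or more.

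Of 306 lincRNA genes, 61 overlapped a protein-coding gene, 46 on the opposite and 15 on the same strand. Another 85 lay under 5 kb from one, 64 between 5 and 50 kb and 96 over 50 kb. Those on the same strand and downstream of the nearest protein-coding gene had 14 rises and 1 fall among 70 (21.4% called). Of all tested genes, 25.9% were called. Only 17 of the 70 lay under 5 kb away, with 3 rises and 0 falls. Upstream on the same strand there were 7 and 7 among 58 (24.1%), and head to head on the opposite strand 7 and 4 among 87 (12.6%). Protein-coding genes downstream of another on the same strand had 173 rises and 240 falls among 1417. The only fall downstream was LINC01239, 190460 bases from DMRTA1, with a change of -0.38. Of the 70, those with 1 exon had 5 rises and 0 falls among 20, and those with more had 9 and 1 among 50. These counts describe the groups, and their difference was not tested. They include genes that had to differ, such as AP005233.2 among the rises downstream.

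**Figure D4:**
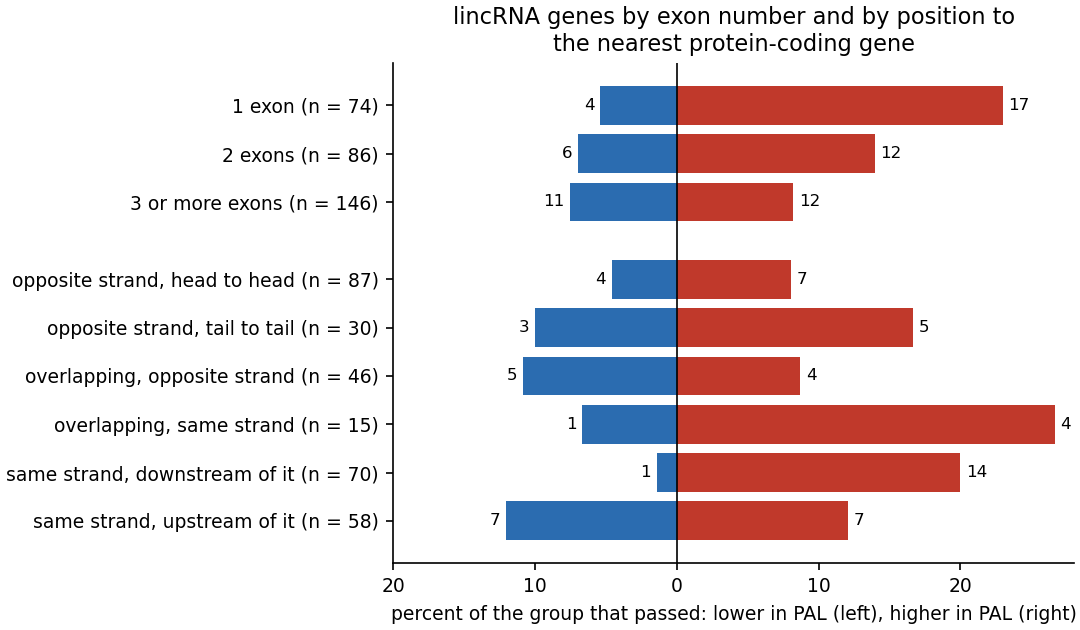
Percent of lincRNA genes that passed the test, lower in PAL to the left (blue) and higher to the right (red), by exon number and by position to the nearest protein-coding gene, with the number of genes beside each bar. The counts include genes that had to differ. Genes with 1 exon (17 higher, 4 lower), genes downstream on the same strand (14 higher, 1 lower) and the 15 genes overlapping on the same strand (4 higher, 1 lower) lean to the right.

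The nearest protein-coding gene was itself tested for 204 lincRNA genes, and 33 of these neighbours were higher and 38 lower. Both genes passed in 14 pairs, 10 of them in the same direction. Among tested protein-coding genes and their own nearest protein-coding genes, 533 pairs both passed and 349 (65.5%) moved in the same direction. Across 48 overlapping pairs Pearson's r of the log2 changes was 0.67, but it was 0.06 over the other 47 once AC025259.3 with NR4A1 was left out, which was decided after seeing the values. Across 73 pairs under 5 kb apart r was 0.02. Genes are not independent replicates, and these r values only describe the pairs.

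Of the 10 lincRNA genes within 5 kb of the called neighbours with the largest changes, AC025259.3 and LINC02587 passed. DUSP5, a phosphatase of the MAP kinase pathway, fell by 2.16, from 67.1 ± 5.45 to 14.3 ± 2.03 FPKM. AL355512.1, which starts 1634 bases from DUSP5 on the opposite strand, had 1.41, 0.860 and 0.720 FPKM in control and 1.90, 1.53 and 0.864 in PAL, with a change of 0.28 ± 0.19 and overlapping groups. CRNDE starts 1673 bases from IRX5, which fell by 1.33, from 6.85 ± 0.537 to 2.14 ± 0.344 FPKM. AL355001.2 had a change of 0.40 (adjusted p 0.0871) beside ZMYM5, which fell by 0.73. AL023803.2, AC018553.1 and AC012306.2 had changes of -0.07, -0.02 and 0.07 beside FAM83D, IRX3 and AMMECR1L, which fell by 0.68, 0.56 and 0.44. AP006621.3 had a change of 0.27 (adjusted p 0.185) beside GATD1, which rose by 0.56, and AL355075.3 a change of -0.32 (adjusted p 0.0952) across PNP, which fell by 0.46. All exonic bases of AL355075.3 (100%) lie under PNP exons on the opposite strand, so their reads cannot be told apart.

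LINC02587 starts 1566 bases from the homeobox gene MEOX2 and rose by 0.46, from 1.81, 1.84 and 2.22 to 2.89, 3.01 and 3.27 FPKM, while MEOX2 rose by 0.53. With voom on the recovered reads its adjusted p was 0.0691. Among pairs that moved in opposite directions were AC019069.1, which rose by 0.32 across HK2, a glycolytic enzyme gene that fell by 0.38, and LINC02381, which fell by 0.27 across SMUG1, which rose by 0.26. Both were named after their values were seen.

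**Figure D5:**
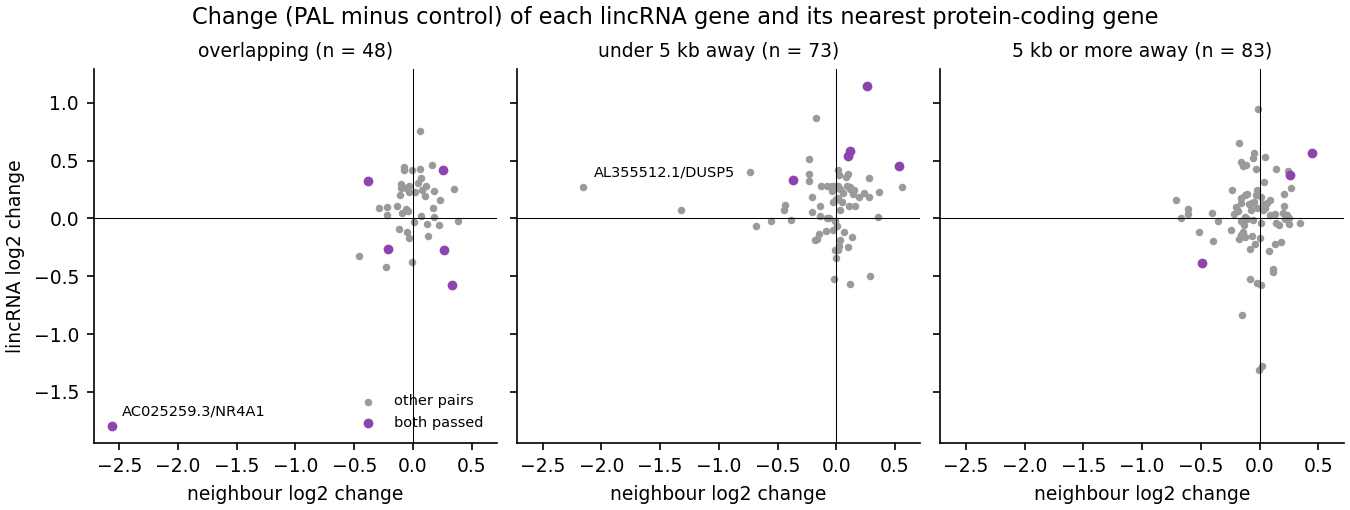
Log2 change (PAL minus control) of each lincRNA gene on the vertical axis against that of its nearest protein-coding gene on the horizontal axis, for 48 overlapping pairs, 73 pairs under 5 kb apart and 83 pairs farther apart, with pairs in which both passed in purple. AC025259.3 with NR4A1 lies alone at the lower left, and AL355512.1 stays near 0 beside the large fall of DUSP5.

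Stress-responsive genes, 94 of which were listed, were the nearest protein-coding gene of 5 lincRNA genes. Of these neighbours 4 fell and of the lincRNA genes only AC025259.3 did. LINC02458, LINC01819 and PVT1 had changes of -0.06, 0.08 and 0.04. They lie 327553, 182855 and 53099 bases from DUSP6, ZFP36L2 and MYC, so these pairs are not close. Of 20 lincRNA genes whose nearest gene is named ZNF or ZFP, 6 rose and 3 fell (45.0% called), a grouping made after the values were seen. Of 315 tested protein-coding genes with such names, 51 rose and 55 fell (33.7%). Among all tested genes 25.9% were called, and the difference was not tested.

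RefSeq promoters (GRCh38.p14, 250 bases before to 50 after the start) were matched by symbol for 121 of 306 lincRNA genes. No limit was set on the distance between the RefSeq start and the gene start in GENCODE. That distance was 109904 bases for AC090502.1, whose window counts among those with an AP-1 site. Motifs were searched on both strands. The GC box GGGCGG occurred in 53.7% of these and 45.0% of all 35116 promoters, the AP-1 site TGANTCA in 9.92% and 7.71%, the E box CACGTG in 9.92% and 7.26%, and the TATA box TATAAA in 5.79% and 11.5%. The heat shock element GAANNTTC was in 8.26% and 6.77%, and a longer heat shock element of 3 units in 2 of 121 (1.65%) and 0.490%. The cyclic AMP element TGACGTCA was in 2.48% and 1.85%. The longer heat shock element contains the shorter one.

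Among the 20 largest changes, the table held promoters of MIR22HG and MGC12916, both lower in PAL. They are printed with the motifs found in capitals. The MIR22HG window, chr17:1716161-1716460 on the minus strand, has its RefSeq start 964 bases from the gene start in GENCODE and holds 3 GC boxes. The MGC12916 window, chr17:14303490-14303789 on the plus strand, has it at 114 bases and holds 1 E box.
MIR22HG: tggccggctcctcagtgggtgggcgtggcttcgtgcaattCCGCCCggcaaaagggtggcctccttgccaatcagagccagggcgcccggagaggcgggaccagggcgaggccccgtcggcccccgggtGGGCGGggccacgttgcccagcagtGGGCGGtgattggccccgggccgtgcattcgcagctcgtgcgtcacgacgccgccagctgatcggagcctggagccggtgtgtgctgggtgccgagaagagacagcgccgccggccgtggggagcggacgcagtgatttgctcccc
MGC12916: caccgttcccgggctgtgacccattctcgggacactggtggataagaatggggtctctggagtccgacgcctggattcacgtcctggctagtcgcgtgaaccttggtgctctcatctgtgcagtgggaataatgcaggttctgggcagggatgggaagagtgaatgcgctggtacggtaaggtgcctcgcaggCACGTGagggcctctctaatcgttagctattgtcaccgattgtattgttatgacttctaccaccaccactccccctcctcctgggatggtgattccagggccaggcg

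Genes of nuclear RNA decay and of transcript cleavage and termination were read from the same fit. Of 13 genes of the nuclear RNA exosome, which degrades RNA from the 3′ end, 3 rose and 1 fell (30.8% called, against 25.9% of all tested genes). EXOSC4, EXOSC3 and EXOSC6 rose by 0.27, 0.15 and 0.37, and the catalytic subunit DIS3 fell by 0.48, from 18.4 ± 0.629 to 12.9 ± 0.314 FPKM. Of 12 tested genes listed with the adaptors that bring RNA to it, not all of which are adaptors, 2 rose and 3 fell (41.7%). ZC3H4, which restrains intergenic transcription, rose by 0.68, from 6.16 ± 0.414 to 10.4 ± 0.479 FPKM, and ZC3H18 by 0.12, while ZCCHC8, a subunit of the NEXT complex, fell by 0.46, MTREX by 0.15 and NCBP2 by 0.17. Of 15 genes of transcript cleavage and termination, 0 rose and 2 fell, PCF11 by 0.62 and SCAF8 by 0.35 (13.3%). Their part in the lincRNA levels was not tested.

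Replicates of one group differed most for 5 genes with 17 to 94 reads. AL162413.1, on 17 reads, had 2.30, 2.45 and 0.00 FPKM in control and 1.48, 2.18 and 0.987 in PAL. AC068580.2 had 2.06, 1.40 and 1.91 FPKM in control and 0.322, 2.66 and 1.45 in PAL, so PAL replicate 1 was low and the groups overlapped. AL133342.1, AC073046.1 and AL161935.3 spread in the same way, on 53, 94 and 47 reads. For these 5 a difference between the groups was not detectable at this depth.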

How the data were processed

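Poly-A enriched RNA of 3 PAL and 3 control libraries of A375 cells was analysed. Titles of the samples gave groups and replicate numbers. The authors deposited 1 FPKM value per gene and library, beside each gene's position, length and biotype, per the file headers. The build hg38 is named in the submitters' processing notes, and the sources used here do not give the aligner, counter, strand setting or read length. All 58735 genes have the start, end and strand of GENCODE release 29, which gave exons and transcripts.

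FPKM times gene length came out as a whole number of reads for 100% of values above 0 (tolerance 0.01), which gave reads per gene and the depth. Library sizes behind the deposited FPKM were 0.980 to 0.984 of the read total in control and 1.04 to 1.05 in PAL. Ratios of reads were scaled by these library sizes.

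The 12258 genes with at least 1 FPKM in at least 3 libraries were tested together with limma 3.58.1 in R 4.3.3, on log2(FPKM + 1) with a variance trend, two-sided, with Benjamini-Hochberg adjustment, a threshold of 0.05 and 4 residual degrees of freedom. The fit was tested on simulated data in which only genes above a minimum of reads were changed, and only by large amounts. Whether it finds small changes, or changes of genes with few reads, was not tested. Distances to the nearest protein-coding gene run between gene ends, and transcripts were aligned with blastn.

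The lincRNA genes and all lists were chosen with earlier results of these data known. Named by rule were the 10 largest rises and falls among lincRNA genes that passed and did not overlap, the 10 highest, up to 10 within 5 kb of a gene that passed, those with a described role, the 3 on each side of the threshold and the 5 with the largest spread. One gene that this rule names is not reported here. Alternatives changed the pseudocount, filter, scaling, variance model, test, replicate block and libraries.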

Additional observations from a re-analysis of the deposited data

How the results depend on the processing

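Of 306 lincRNA genes, 21 had under 50 reads over all libraries. Of the 62 lincRNA genes called, 22 (14 higher, 8 lower) were called in all 16 alternatives other than the filter at a mean of 5 FPKM, and 0 changed direction in these. The counts of lincRNA genes higher and lower were 20 and 12 when every gene above 0 was fitted, 9 and 6 of 42 with a mean of at least 5 FPKM, and 31 and 18 with voom on the recovered reads. Leaving out 1 library gave 27 to 40 higher and 15 to 20 lower, and leaving out both libraries numbered 3 gave 32 and 14. Over all tested genes, the count higher was 765 when every gene above 0 was fitted, 2697 as TPM and 3097 with plain read totals, and the count lower was 1170 as TPM and 1130 with plain read totals. Leaving out 1 library gave 688 to 1202 higher and 1167 to 1587 lower. The cause of these shifts was not tested.

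With the replicate number as a block, 33 lincRNA genes were higher and 14 lower, and 838 of all genes were higher. The correlations between same-numbered libraries of their deviations from the group means were -0.024, 0.027 and -0.045. Those between libraries of different numbers ran from -0.041 to 0.061. No pairing was seen, but with 3 libraries per group this check cannot exclude one.

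Genes that did not pass changed sign in some alternatives, and none of these values passed either. Without both libraries numbered 3 the log2 changes were 0.067 for AL023803.2, 0.17 for AC018553.1, 0.011 for CYTOR, -0.030 for PVT1, -0.26 for AL162413.1 and -0.078 for AL133342.1. AC018553.1 was at 0.030 as TPM and at 0.033 with plain read totals. Leaving out 1 library gave -0.20 to 0.15 for AL023803.2, -0.12 to 0.082 for AC018553.1, -0.12 to 0.18 for AC012306.2, -0.13 to 0.023 for CYTOR, -0.055 to 0.081 for MIR222HG, -0.0078 to 0.13 for PVT1, -0.43 to 0.46 for AL162413.1, -0.63 to 0.11 for AC068580.2, -0.064 to 0.64 for AL133342.1 and -0.36 to 0.26 for AC073046.1. The r over overlapping pairs moved from 0.67 to 0.06 without AC025259.3. The 146 lincRNA genes overlapping or under 5 kb from a protein-coding gene became 126 at 2 kb and 162 at 10 kb, and the 306 became 536 at 0.5 FPKM and 144 at 2 FPKM.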
